A study of Mus musculus with 6 samples.

Results

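Accessible chromatin at 31 autophagy and lysosome genes was described in mouse bone marrow haematopoietic stem cells (HSCs). The genes were 21 of the autophagy machinery, 7 of the lysosome and the 3 MiT/TFE transcription factors Tfeb, Tfe3 and Mitf. Peaks of 6 libraries that overlapped by at least 1 bp were merged into 82993 regions, and the 211 regions in or within 20 kb of one of these genes were kept. The regions were kept by position alone. Of the 211 regions, 143 belonged to autophagy genes, 39 to lysosome genes and 29 to the MiT/TFE genes. The nearest gene was the gene itself for 147 of them, and 33 lay within 1 kb of the end of another gene.

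The libraries came from ATAC-seq, in which a transposase cuts and tags open DNA, on about 5000 CD48- CD150+ LSK cells each. All mice were wild-type C57BL/6J. One group of 3 libraries followed an intraperitoneal injection of DMSO, the solvent, and the other group of 3 followed tunicamycin at 2 mg per kg, an inhibitor of N-linked glycosylation that causes endoplasmic reticulum (ER) stress. The sources used here do not give the age of the mice, the time from injection to sorting or the number of mice behind a library, so any p-value measures the spread between libraries, which may be technical.

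Autophagy wraps cytoplasm in a double membrane, the autophagosome, and delivers it to the lysosome for digestion. The ULK1 complex starts the process, the class III PI3-kinase complex marks the membrane with a phosphoinositide, and a pair of ubiquitin-like conjugation systems attaches proteins of the ATG8 family to it. TFEB, TFE3 and MITF are basic helix-loop-helix factors that bind the E-box CACGTG in the promoters of many lysosome and autophagy genes, and they enter the nucleus when mTORC1 is inactive. Autophagy is known to help maintain HSCs, and ER stress is a known inducer of it.

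The 6 lists held 28501 to 62478 peaks each, and the DMSO group held both the longest list (replicate 1) and the shortest (replicate 3). The lists carry no read depth. Absence of a call is thus no proof that a site was closed, and a more accessible site cannot be told apart from a site open in more of the cells. A region called in all 6 libraries in the gene or within 1 kb of it was found at 54.4% of 21887 protein-coding genes. Of 10 HSC marker genes, 6 had such a region. Ly6a, Slamf1 and Tek were among those that did not, although Ly6a encodes Sca-1 and Slamf1 encodes CD150, which were used for the sort. Of 18 markers of committed and mature cells, 6 had such a region (Cd48, Ebf1, Csf1r, Klf1, Pf4 and Itga2b). The region counts at the members followed list length, with 172, 113 and 87 of the 211 called in DMSO replicates 1, 2 and 3 and 133, 156 and 150 in tunicamycin replicates 1, 2 and 3. With every list limited to its 28501 peaks of highest −log10 q, these counts were 98, 92 and 87 against 102, 90 and 97, and the groups overlapped.

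Mitf and Tfe3 are transcribed from several start sites, and the sequences of a start that was open in every library and of one that was not are given here because the calls differed between them. The windows run from 250 bases before a start site to 50 after it, 5′ to 3′ on the plus strand, from RefSeq on GRCm38.p6, the assembly that mm10 denotes. Capitals mark TGACGTCA, the full cAMP response element, which was the only one of 5 searched motifs present in these windows. The first Mitf window (chr6:97806808-97807107) lay in a region called in all 6 libraries, and the third (chr6:97991533-97991832), 185 kb into the gene, lay in none. The first Tfe3 window (chrX:7762411-7762710) was called in all 6, and the second (chrX:7763693-7763992), 1.41 kb into the gene, only in tunicamycin replicates 2 and 3.
Mitf, the first start: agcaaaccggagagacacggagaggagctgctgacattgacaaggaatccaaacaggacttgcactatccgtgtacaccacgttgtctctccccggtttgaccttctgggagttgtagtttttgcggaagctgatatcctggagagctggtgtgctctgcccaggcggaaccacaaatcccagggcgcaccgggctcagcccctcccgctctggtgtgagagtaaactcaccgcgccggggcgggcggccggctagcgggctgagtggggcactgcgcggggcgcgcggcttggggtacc
Mitf, the third start: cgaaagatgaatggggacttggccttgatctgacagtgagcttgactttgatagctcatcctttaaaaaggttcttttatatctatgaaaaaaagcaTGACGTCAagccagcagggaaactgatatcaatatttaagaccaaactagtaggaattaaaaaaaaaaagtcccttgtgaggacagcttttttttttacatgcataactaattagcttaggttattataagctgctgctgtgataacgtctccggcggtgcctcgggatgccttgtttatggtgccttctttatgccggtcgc
Tfe3, the first start: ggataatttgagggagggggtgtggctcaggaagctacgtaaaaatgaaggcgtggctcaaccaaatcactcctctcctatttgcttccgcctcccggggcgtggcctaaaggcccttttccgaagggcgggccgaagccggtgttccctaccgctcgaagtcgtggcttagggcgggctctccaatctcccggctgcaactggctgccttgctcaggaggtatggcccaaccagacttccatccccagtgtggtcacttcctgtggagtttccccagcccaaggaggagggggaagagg
Tfe3, the second start: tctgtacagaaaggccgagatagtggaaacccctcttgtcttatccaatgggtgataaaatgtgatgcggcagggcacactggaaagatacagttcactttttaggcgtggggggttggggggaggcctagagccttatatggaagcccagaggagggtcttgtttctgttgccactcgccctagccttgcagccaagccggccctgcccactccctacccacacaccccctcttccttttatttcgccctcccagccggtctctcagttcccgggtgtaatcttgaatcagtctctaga

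The E-box is shown next because it is the letter pattern that the MiT/TFE factors bind. RefSeq windows were found for 24 of the 31 genes, 29 windows in all, and CACGTG, which reads the same on both strands, stood in 8 of them (27.6%) against 2346 of 32817 windows of the same length (7.15%). It stood in 4 of 6 lysosome windows, 4 of 15 autophagy windows and 0 of 8 MiT/TFE windows. The 29 windows held a median of 19 CpG dinucleotides against 7 over all windows. CACGTG itself holds a CpG, and the motif shares given here were not matched for CpG content. The stretches run from the first to the last E-box of a window with up to 15 bases to each side, 5′ to 3′ on the strand of the gene, on GRCm38.p6, with each CACGTG in capitals. Lamp1 held 4 copies, at 61, 45, 28 and 15 bases before its start site (chr8:13159085-13159166, plus strand). Mcoln1 held 2 (chr8:3500433-3500494, plus), Ctsd 2 (chr7:142387905-142388077, minus) and Ctsl 1 (chr13:64370736-64370770, minus). Among autophagy genes Atg3 held 2 (chr16:45158720-45158778, plus), and Atg14 (chr14:47568415-47568450, minus), Atg5 (chr10:44268310-44268345, plus) and Atg7 (chr6:114670949-114670984, plus) held 1 each.
Lamp1: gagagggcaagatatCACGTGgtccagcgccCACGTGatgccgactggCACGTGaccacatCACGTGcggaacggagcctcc
Mcoln1: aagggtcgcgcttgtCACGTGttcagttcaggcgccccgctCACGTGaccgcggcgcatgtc
Ctsd: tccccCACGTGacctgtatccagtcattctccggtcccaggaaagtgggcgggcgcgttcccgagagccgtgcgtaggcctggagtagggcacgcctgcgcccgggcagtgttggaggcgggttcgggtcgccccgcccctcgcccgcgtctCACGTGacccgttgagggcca
Ctsl: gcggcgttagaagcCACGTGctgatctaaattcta
Atg3: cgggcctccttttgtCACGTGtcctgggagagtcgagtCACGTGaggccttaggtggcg
Atg14: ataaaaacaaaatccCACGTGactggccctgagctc
Atg5: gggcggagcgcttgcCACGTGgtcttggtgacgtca
Atg7: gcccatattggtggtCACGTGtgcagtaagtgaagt

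The longer form TCACGTGA, which contains CACGTG and is the core of the element described for coordinated lysosomal expression, stood once in each of the Mcoln1, Ctsd and Atg3 windows, 3 of 29 (10.3%) against 0.975% of all windows. TGACGTCA stood in the Atg5 window and the third Mitf window (6.90% against 1.79%). TGACGTGG, the core recognised by the ER stress factor ATF6, and TGATGCAAT, a form of the element bound by ATF4 with C/EBP factors, were in none of the 29 windows and in 0.676% and 0.192% of all windows. Both strands were searched, and these are matches of letters in a short window. Of the 8 windows with an E-box, 6 lay in regions called in all 6 libraries. The Lamp1 window was called in all but DMSO replicate 3, and the Atg7 window, at an internal start 28.0 kb into the gene, in none. Over the 29 windows, 22 were in regions called in all 6 libraries, against 32.2% of all 32817 windows. The 22 held a median of 20 CpG dinucleotides and the other windows a median of 8, and over all windows the medians were 22 and 4.

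At the MiT/TFE genes, each of the 3 factors had an accessible start in all 6 libraries, and their ranks differed. A region's percentile is the share of peaks in the same list whose fold enrichment over background is no higher than that of its highest peak. It orders peaks within a list. Since the lists differ in length, percentiles are given library by library, and no change between the groups is read from them. The Mitf start (chr6:97806724-97807691) stood at 99.3, 99.8 and 91.4 in the DMSO libraries and 98.9, 96.9 and 99.9 in the tunicamycin libraries. MITF is best known as the master factor of melanocytes and mast cells. The first start of its gene stood near the top of every list, while the third start, shown above, was called in none. Which cell types use which start is not given in the sources used here. The Tfe3 start (chrX:7762325-7762926) stood at 93.9, 91.7 and 92.7 after DMSO and 92.0, 83.6 and 86.8 after tunicamycin. The Tfeb start (chr17:47736860-47738414) stood lower, at 56.0, 65.1 and 68.8 after DMSO and 56.1, 62.4 and 66.7 after tunicamycin. The order Mitf, Tfe3, Tfeb held in 5 libraries, and in DMSO replicate 3 Tfe3 stood above Mitf. The values of Tfeb did not meet those of either other gene in any library.

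The 3 genes also differed in what lay beyond the first start. Tfeb had 11 regions, 5 of them in all 6 libraries, and 3 of those 5 lay inside the gene (chr17:47754140-47754820, chr17:47759642-47760386 and chr17:47768512-47769387). Its second start, 0.894 kb downstream, shared the region of the first, and the third, 48.7 kb into the gene, had no call in any library. Mitf had 10 regions over 214 kb and only 2 in all 6 libraries, the start and one deep inside the gene (chr6:97995732-97996277). That inner region lies downstream of the third start shown above. The window of the second Mitf start, 123 kb into the gene, was called in tunicamycin replicate 1 alone, at the percentile 35.9. Tfe3 had 8 regions, 2 of them in all 6 libraries, and the calls at its second start stood low in their lists, at 4.32 and 9.11.

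**Figure D1:**
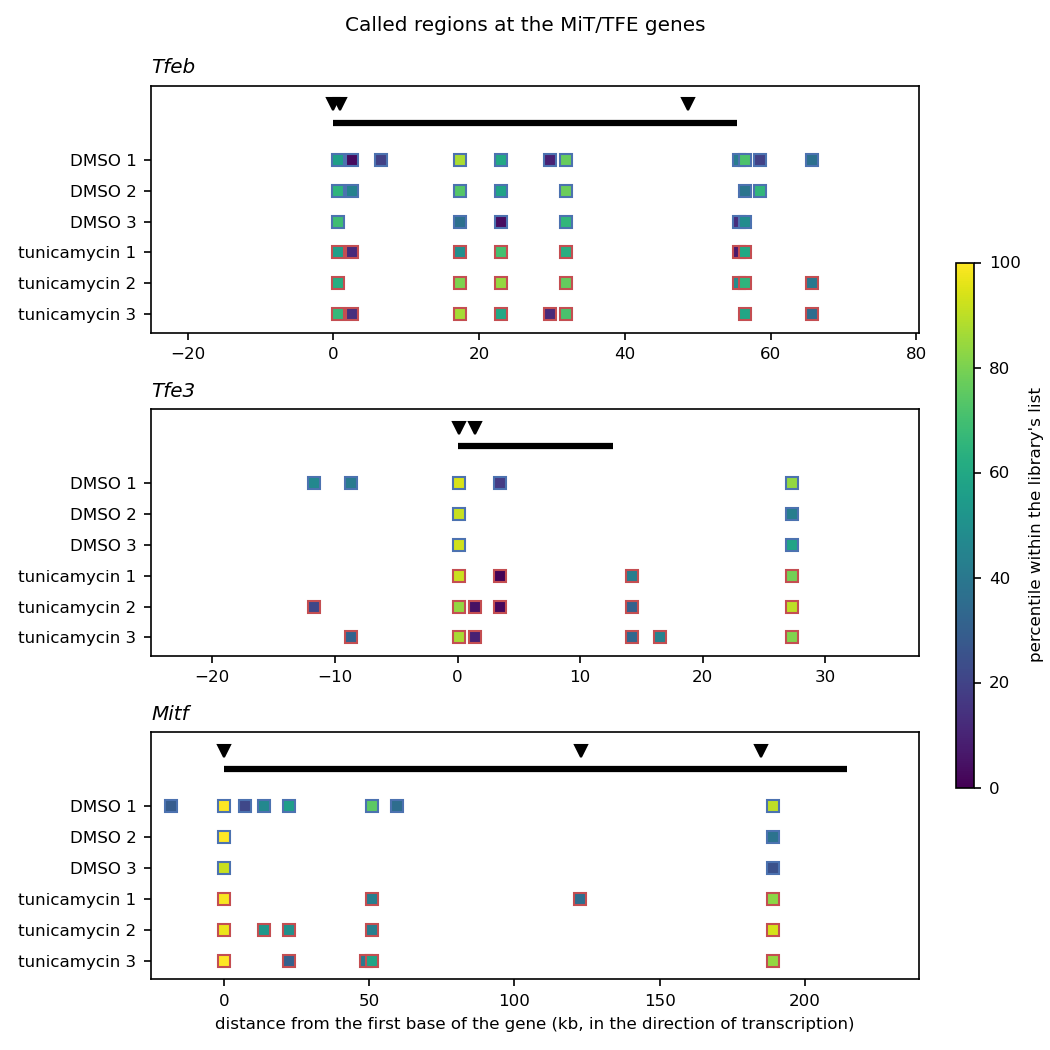
Called regions at Tfeb, Tfe3 and Mitf. Each row is a library and each square a region it called, placed at its midpoint by distance in kb from the first base of the gene in the direction of transcription, with blue edges for DMSO and red edges for tunicamycin and the fill giving the percentile within that library's list. The bar is the gene and the triangles are RefSeq start sites. The first start carries a square in all 6 libraries at each gene, and the square just past the end of Tfe3 is present in the 3 tunicamycin libraries alone.

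A region just outside Tfe3 separated the groups. It was 581 bp long, lay 1.25 kb outside the gene (chrX:7776449-7777029) and was called in all 3 tunicamycin libraries, with deposited fold enrichments of 5.03, 4.49 and 4.76 and percentiles of 42.3, 30.8 and 33.0. No DMSO library called it, and their nearest peaks lay 10.4, 12.6 and 12.6 kb away. Ulk2, which encodes a kinase that starts autophagy, had the other such region (chr11:61760573-61760945), 14.7 kb outside the gene and inside its neighbour Prpsap2. It was 373 bp long, with folds of 4.23, 3.94 and 3.66 and percentiles of 22.9, 17.0 and 8.49, and the DMSO peaks nearest to it lay 0.760 to 0.779 kb away.

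Those were the only tunicamycin-only regions (called in 3 of 3 tunicamycin and 0 of 3 DMSO libraries) among the 211, 0.948% against 0.683% of all 82993 regions. No member region was DMSO-only, against 0.0976% of all regions. Each of the 2 has an exact permutation p of 0.1, the smallest that 3 libraries against 3 allow. Both were also separated at a stricter limit on the q-value, 1e-05. With lists of one length, 0 tunicamycin libraries called the Tfe3 region and 1 called the Ulk2 region, and 3 other regions were tunicamycin-only, 1 at Atg14 and 2 at Uvrag. Tunicamycin-only member regions numbered 13 without DMSO replicate 1, the longest list, and 8 without tunicamycin replicate 1. With a library left out, fewer calls have to agree for a region to count. No share over all regions is given for these alternatives, so their counts are not read as results about the members. Calls from every tunicamycin library but, among the DMSO libraries, from replicate 1 alone were found at 11 regions (5.21%, against 4.39% of all regions). Those missing only in DMSO replicate 3 numbered 21 (9.95%, against 8.27%).

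The initiation genes, which encode the kinases Ulk1 and Ulk2, their partners Atg13 and Rb1cc1, and the membrane carrier Atg9a, had 26 regions. All 6 libraries called 12 of them (46.2%), against 25.1% of all regions. The 25.1% covers regions at any place, and regions at gene ends were called more often. The shares by role, here and below, were not matched for this. The gene-end regions of these genes, the best-ranked region within 1 kb of either end of a gene, were all called in all 6 libraries. The median over libraries was lowest at Ulk2, with percentiles of 77.5, 64.3 and 63.2 after DMSO and 69.7, 75.5 and 75.9 after tunicamycin. The other 4 had medians from 77.6 to 94.8.

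The class III PI3-kinase complex and its effector Wipi1 came next. Uvrag, which joins the complex in autophagosome maturation, had the most regions of any member, 28 over a gene of 254 kb, with 9 in all 6 libraries. Its start (chr7:99140665-99141929) stood at 88.8, 97.3 and 96.6 after DMSO and 94.8, 92.7 and 95.3 after tunicamycin. Pik3c3, which encodes the catalytic subunit, was the only member with no region within 1 kb of a gene end, and its single region in all 6 libraries lay inside the gene (chr18:30272612-30273340). Becn1 and Atg14, the scaffold subunits, had gene-end medians of 88.6 and 87.9. The complex had 41 regions with 15 in all 6 libraries (36.6%, against 25.1% of all regions). Wipi1, which binds the lipid that the complex makes, had 9 regions with 1 in all 6, the gene end, at a median percentile of 88.4.

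Among the conjugation genes, Atg3 and Atg5 had the highest gene-end medians of all autophagy genes, 96.4 and 96.0. ATG3 is the enzyme that passes ATG8 proteins to their lipid, and its start (chr16:45158167-45159511) stood at 94.5, 97.9 and 95.5 after DMSO and 97.4, 94.0 and 98.5 after tunicamycin. Atg5 and Atg16l1 encode parts of the complex that directs this step. Atg5 (chr10:44267836-44268827) stood at 98.8, 96.4 and 86.0 and then 95.6, 97.0 and 94.7, and Atg16l1 (chr1:87755489-87756525) ranged from 90.3 to 98.1 with a median of 94.9. Atg7, which activates both conjugation systems, had 15 regions over 217 kb and only 2 in all 6 libraries. Its gene end had a median of 76.2, and that of Atg12, the ubiquitin-like partner of ATG5, 83.9. The 5 genes together had 34 regions with 9 in all 6 (26.5%, against 25.1% of all regions). Those missing only in DMSO replicate 3 numbered 7 (20.6%, against 8.27% of all regions).

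The ATG8 family, whose proteins coat the autophagosome, included the lowest gene ends of the set. Gabarapl1 (chr6:129533033-129533939) stood at 31.9 and 22.0 in DMSO replicates 1 and 2, had no call in DMSO replicate 3, and stood at 9.24, 46.1 and 23.8 after tunicamycin. Map1lc3b, which encodes LC3B, the standard marker of autophagosomes, stood at 52.2, 51.2 and 44.5 after DMSO and 33.8, 46.4 and 66.7 after tunicamycin (chr8:121590201-121591664). The start region of Gabarap (chr11:69990825-69991889) stood at 53.6, 49.2 and 50.0 after DMSO and 44.0, 45.9 and 40.8 after tunicamycin. In Gabarap a region 0.396 kb past the gene, whose nearest gene was Phf23, ranked higher and gave the gene-end median of 55.7. Gabarapl2 and Map1lc3a had medians of 86.0 and 78.6. The family had 30 regions with 14 in all 6 libraries (46.7%, against 25.1% of all regions). Of those 14, 6 were at Gabarap, where genes lie close together. Sqstm1, which encodes the cargo receptor p62, had 3 regions with 2 in all 6, and its gene end had a median of 78.0.

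The lysosome genes divide into membrane proteins and hydrolases. LAMP1 and LAMP2 are the main glycoproteins of the lysosomal membrane, and MCOLN1 is its calcium channel. The Lamp2 start (chrX:38455895-38456962) stood at 93.9, 86.4 and 66.9 after DMSO and 96.6, 94.4 and 87.5 after tunicamycin. The Lamp1 start (chr8:13158931-13159776), which holds the 4 E-boxes shown above, stood at 70.9 and 38.5 in DMSO replicates 1 and 2, had no call in replicate 3, and stood at 75.1, 68.7 and 67.4 after tunicamycin. Lamp1 had 3 regions and was the only lysosome gene with none in all 6 libraries. The cathepsins are lysosomal proteases and HEXA is a subunit of the hexosaminidase that degrades gangliosides. Ctsl (chr13:64369872-64370871) stood highest of the 4 hydrolases, at 93.7, 84.6 and 72.8 and then 91.8, 92.2 and 86.6. Hexa (chr9:59539411-59540165) stood lowest, at 60.8, 19.1 and 63.2 and then 62.7, 62.2 and 57.3. Mcoln1 stood at 87.5, 43.9 and 64.7 and then 82.4, 83.1 and 85.9, and Ctsb at 81.5, 73.1 and 65.3 and then 73.6, 77.9 and 80.1. In 6 of the 7 lysosome genes the lowest value or the missing call fell in DMSO replicate 2 or 3, the libraries with the shortest lists. The exception was Ctsd, which had a median of 70.4 and its lowest value in DMSO replicate 1.

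**Figure D2:**
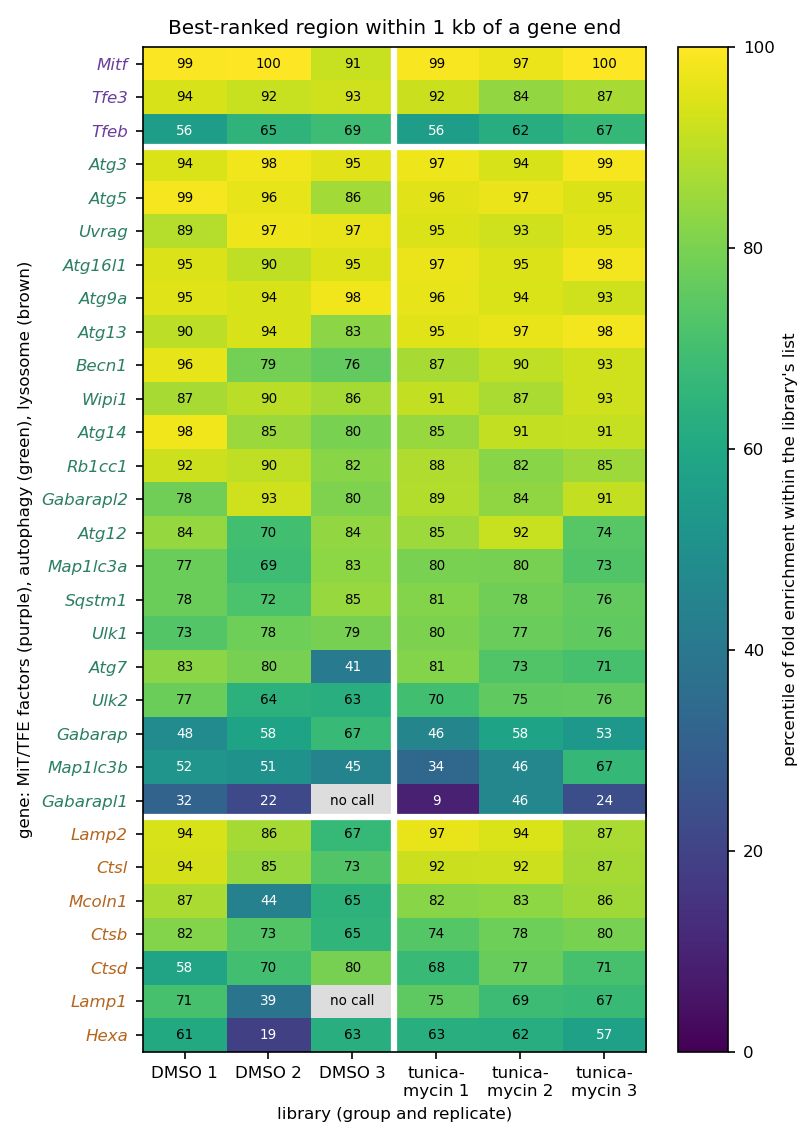
Percentile of the best-ranked region within 1 kb of a gene end, by gene (rows) and library (columns). Colour and number give the percentile of fold enrichment within that library's list, grey cells had no call, and Pik3c3 had no such region. Atg3 stands at 94.0 or above in every library, Gabarapl1 at 46.1 or below, and the grey cells are Gabarapl1 and Lamp1 in DMSO replicate 3.

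Across the set, 29 of 31 genes had a region called in all 6 libraries in the gene or within 1 kb of it, against 54.4% of 21887 protein-coding genes. They were 20 of 21 autophagy genes, 6 of 7 lysosome genes and all 3 MiT/TFE genes. The exceptions, Gabarapl1 and Lamp1, were missing in DMSO replicate 3 alone, and without that library all 31 qualified. The gene-end region itself was called in all 6 libraries at 28 genes, against 45.4% of protein-coding genes. With a call required to cover 50% of a region, 22 genes qualified.

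By class median, autophagy gene ends ranked above lysosome gene ends in every library, but the genes of the classes overlapped. Medians over libraries ran from 22.9 (Gabarapl1) to 96.4 (Atg3) for autophagy genes and from 61.5 (Hexa) to 90.7 (Lamp2) for lysosome genes. A missing call counted as 0 in every class and over all genes. The median percentile of the 20 autophagy genes with a gene-end region was 85.4, 82.2 and 82.4 in the DMSO libraries and 86.0, 85.4 and 88.1 in the tunicamycin libraries. That of the 7 lysosome genes was 81.5, 69.8 and 65.3 and then 75.1, 77.9 and 80.1. The 3 MiT/TFE genes had medians from 83.6 to 93.9, and 12978 protein-coding genes with a gene-end region in at least 2 libraries had medians from 67.9 to 80.4. Autophagy exceeded lysosome by 9.99 points ± 4.58 (SD, n = 6 libraries), by 11.2 ± 6.69 (SD, n = 3) after DMSO and 8.81 ± 1.88 (SD, n = 3) after tunicamycin, and the values of the groups overlapped. The medians are over the same genes in each library and describe these genes. With lists of one length the mean difference was 17.4, and with 50% cover required it was 22.6. Calls missing under these settings also counted as 0.

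Where a region lay went with how often it was called. Of the 40 member regions at gene ends, 32 (80.0%) were called in all 6 libraries, against 56.2% of all regions within 1 kb of a gene end. Of the 85 inside genes 16 (18.8%) were called in all 6, against 17.5% of all regions away from gene ends. Of the 86 outside genes 28 (32.6%) were, and these were mostly regions at the ends of neighbouring genes. Within 1 kb of another gene's end 18 of 22 were called in all 6 libraries, and farther away 10 of 64 (15.6%) were, close to the 17.5% of all such regions. Median lengths were 982.5 bp at gene ends, 331 bp inside and 468 bp outside. Over the 211, 76 (36.0%) were called in all 6 libraries against 25.1% of all regions, and 48 were called in 1 library, against 32.4% of all regions. DMSO replicate 1 alone accounted for 21 of the 48. Among regions called in at least 2 libraries, DMSO replicate 3 called 87.2% of those at gene ends and 32.7% of those inside genes, while DMSO replicate 1 called 100% and 89.1%. Calls missing from the shortest list were thus most frequent inside genes.

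The 3 classes were then compared by the percent of their regions that each library called, among regions called in at least 2 libraries. The 111 autophagy regions were called at 93.7, 72.1 and 52.3% in the DMSO libraries and 83.8, 90.1 and 86.5% in the tunicamycin libraries. All 56122 such regions were called at 90.5, 62.7 and 45.1% and at 73.5, 86.7 and 77.2%. Autophagy regions thus stood above all regions in every library, by 6.57 points ± 3.15 (SD, n = 3) after DMSO and 7.67 ± 3.70 (SD, n = 3) after tunicamycin. The set of all regions was not matched to any class for place. Of all regions within 1 kb of a gene end, 56.2% were called in all 6 libraries, against 17.5% of the others. How far place enters the distance of each class from all regions was not tested. The 30 lysosome regions were called at 90.0, 66.7 and 56.7% and at 70.0, 96.7 and 93.3%, which is 5.01 points ± 6.11 (SD, n = 3) and 7.55 ± 10.1 (SD, n = 3) above all regions. The 22 MiT/TFE regions were called at 90.9, 50.0 and 45.5% and at 63.6, 81.8 and 77.3%, a mean of -3.98 points ± 7.53 (SD, n = 3) and -4.88 ± 5.01 (SD, n = 3) from all regions. The groups differed by 1.09, 2.54 and -0.899 points for the 3 classes, each less than the SD within either group. Before this subtraction the means of all 3 classes were higher after tunicamycin, as were those of all regions, at 66.1% ± 22.9 and 79.1% ± 6.78 (SD, n = 3 each).

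**Figure D3:**
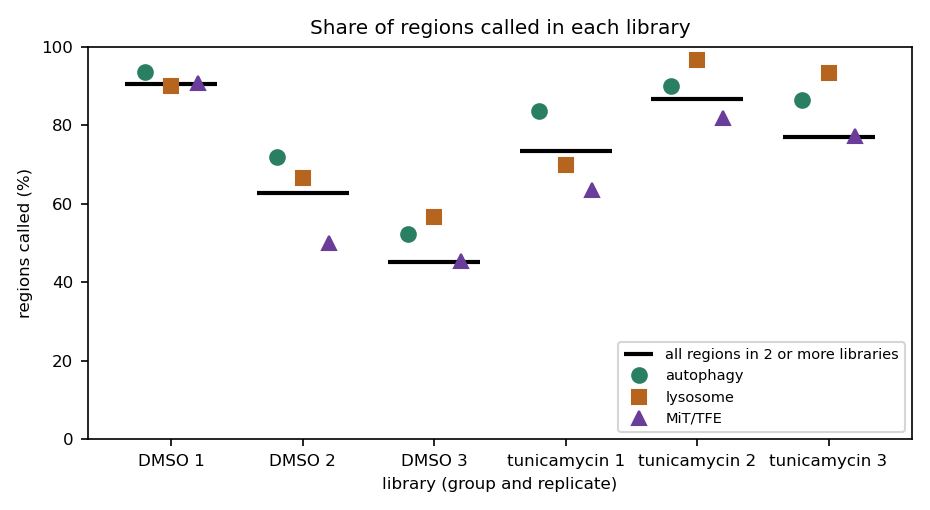
Percent of regions called in each library, among regions called in at least 2 libraries. Circles are the 111 autophagy regions, squares the 30 lysosome regions, triangles the 22 MiT/TFE regions, and bars all 56122 regions. Circles lie above the bar in all 6 libraries, and the symbols move with the bars, which run from 45.1% to 90.5%.

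Regions called in all 6 libraries can be ranked in each list among the same 20810 regions, so that every rank is out of the same number. The ranks still went with list length. Regions within 1 kb of a protein-coding gene end had a median rank of 67.2 in DMSO replicate 3, the shortest list, and 59.3 in DMSO replicate 1, the longest. Regions elsewhere had medians of 38.7 and 43.1. How far list length enters the shifts was not tested. Among the 76 member regions, 3 ranked higher in all 3 tunicamycin libraries than in any DMSO library (3.95%, against 4.66% of the 20810) and 4 ranked lower (5.26%, against 4.55%). Both shares are near the background. The median shift was -0.362 points for member regions and -0.304 for all 20810. By class the medians were -1.14 for 53 autophagy regions, 3.24 for 14 lysosome regions and -0.474 for 9 MiT/TFE regions. The smallest exact permutation p was 0.1, the smallest this design allows, so 0 regions had an unadjusted p under 0.05, and every Benjamini-Hochberg adjusted p over the 20810 regions was 1.

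The 7 regions without overlap are given by value, and those at Atg13, Rb1cc1 and Atg14 were chosen for naming after their values were seen. The Lamp2 region 16.9 kb outside the gene (chrX:38473405-38474181) had ranks of 66.1, 29.0 and 8.02 after DMSO and 69.7, 71.5 and 75.2 after tunicamycin, a shift of 37.8 points. Its DMSO values spread widely, and without DMSO replicate 3 the shift was 22.4. The Atg5 region 16.1 kb outside the gene (chr10:44380367-44381251) had ranks of 33.7, 43.4 and 57.9 after DMSO and 78.1, 83.2 and 76.3 after tunicamycin. Its shift was 34.2 points. All 7 regions were picked for lack of overlap, so the gap between the groups is not read as a further result. The gene-end region of Atg13 (chr2:91710072-91711250) shifted by 13.2 points, from ranks of 71.8, 88.7 and 76.3 to 89.3, 91.1 and 95.8. No other gene-end region of the set ranked higher without overlap.

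The 4 regions that ranked lower shifted by -16.7 to -12.3 points. The start of Rb1cc1 (chr1:6214083-6215519), which encodes the scaffold FIP200 of the ULK1 complex, went from 78.6, 82.3 and 75.7 to 74.5, 56.0 and 67.6, a shift of -12.8 points. The start of Gabarap went from 15.6, 24.2 and 35.8 to 15.1, 11.3 and 12.4, a shift of -12.3, and without DMSO replicate 3 its groups overlapped (-8.05). A region 2.06 kb outside Hexa (chr9:59567168-59567552) went from 70.0, 73.3 and 69.7 to 51.1, 61.9 and 53.0, a shift of -15.7. A region near Atg14 whose nearest gene was Fbxo34 (chr14:47533623-47534267) shifted by -16.7. With q-values of at most 1e-05, 6 of the 7 regions stayed without overlap in the same direction, and the Lamp2 region was no longer called in all 6 libraries. With lists of one length 6 stayed, and the Atg14 region was no longer called in all 6. Both cuts mainly change which regions are ranked, so they test little for regions picked for lack of overlap. With ranks by −log10 q, 6 stayed, and the groups overlapped at Rb1cc1. None of the 9 MiT/TFE regions was without overlap. The inner Mitf region had the widest shift among them, 36.3 points, from 72.3, 16.5 and 13.2 to 64.0, 82.5 and 64.4 (exact permutation p = 0.3), and DMSO replicate 1 lay among the tunicamycin libraries.

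**Figure D4:**
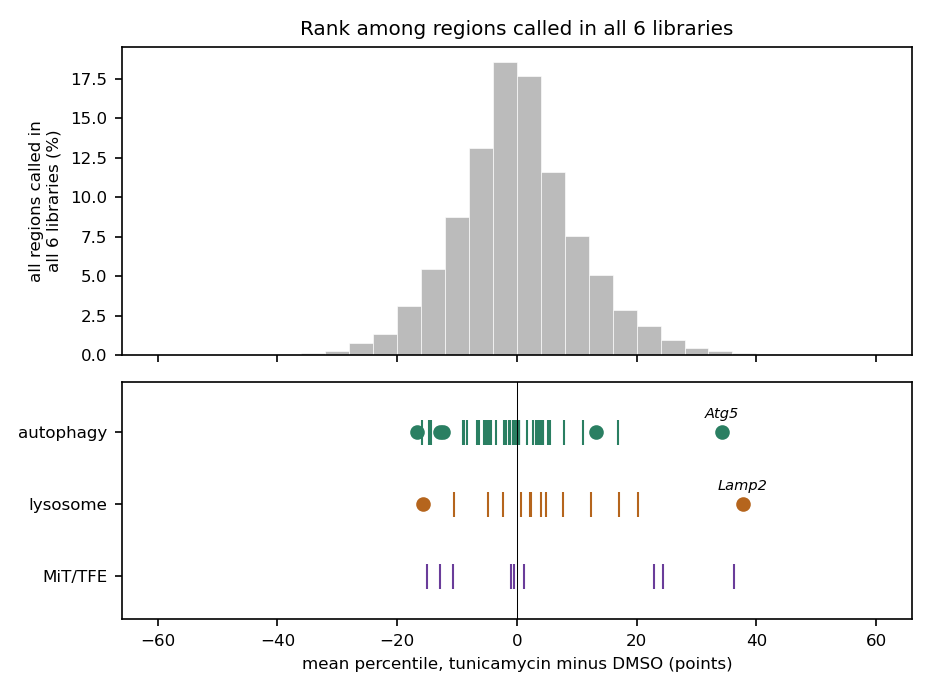
Shift in rank among regions called in all 6 libraries, as mean percentile after tunicamycin minus mean percentile after DMSO, in points. The upper panel shows all 20810 regions as percent per bin, and the lower panel each member region, as a dot where the groups did not overlap and as a line where they did. The Atg5 and Lamp2 dots stand at 34.2 and 37.8, and the other 5 dots lie between -16.7 and 13.2.

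The rest of the pathway was read from written lists of further genes. Of 38 other autophagy genes, 33 had a region called in all 6 libraries in or within 1 kb of the gene (not Atg2a, Atg4a, Nrbf2, Vamp8 and Epg5), as had 42 of 45 other lysosome genes (not Ctsf, Ctsk and Cd63). The proton pump that acidifies the lysosome was represented by 15 of 16 V-ATPase genes (not Atp6v1c1), and 14 of 16 genes that control the MiT/TFE factors qualified (not Tfec and Rragd). The share over all protein-coding genes by the same rule was 54.4%. Tunicamycin-only regions within 20 kb numbered 2 of 206 at other autophagy genes (Ambra1 and Vps39) and 4 of 315 at other lysosome genes, among them Glb1, Laptm4a and Laptm5. There were 0 of 68 at V-ATPase genes and 2 of 84 at the control genes. Over all 82993 regions the share was 0.683%, and no list was tested against it. The regions at the control genes were at Fnip1, which encodes a partner of folliculin in the control of TFEB and TFE3, and Ppp3cb, which encodes a catalytic subunit of calcineurin, the phosphatase that acts on TFEB. The Fnip1 region (chr11:54534974-54535254) lay 16.7 kb outside the gene, with percentiles of 49.5, 25.4 and 40.5. The Ppp3cb region (chr14:20503064-20503501) lay inside the gene, at 48.0, 61.3 and 54.7. DMSO-only regions numbered 0 in all 4 lists.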

How the data were processed

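Every library had its own peak list, called without pooling. The build mm10 and the tools MACS2, Picard, featureCounts, Bowtie2 2.2.9 and Trim Galore 0.4.4 are named, without roles or settings, in the submitters' processing notes. Neither the calling threshold nor the read filters nor any shift of read ends is given in the sources used here. The values per peak, as deposited by the authors, are a −log10 q-value, a −log10 p-value, a ratio (the fold enrichment over background) and a score for display. The score was not used. The −log10 p-value served to break ties of the −log10 q-value when lists were cut to one length. The −log10 q-value and the ratio order or filter the peaks of 1 list and were not compared between lists as levels.

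Merging took peaks of chromosomes 1 to 19, X and Y (bedtools 2.31.1 gave the same 82993 regions), and 109 to 138 peaks per list on other sequences were left out. Genes came from a RefSeq table for GRCm38.p6 without strand, so gene ends were not split into starts and ends except by the RefSeq promoter windows. Exons and introns were not distinguished. Each shared region was tested between groups by exact permutation, two-sided, with Benjamini-Hochberg adjustment, tested on simulated data. Alternatives were stricter q-values, lists of one length, calls with 50% cover, other distances, the nearest gene only, autosomes only, ranks by −log10 q, leaving out each library, and pairing libraries of one number.

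The members, lists and tests were chosen with earlier results of these data known. The rule for naming took the MiT/TFE factors, members with a region in 1 group only and members not open in all 6 libraries. By median gene-end percentile it added the 4 highest and 4 lowest autophagy genes and the 2 highest and 2 lowest lysosome genes. Other members, such as Mcoln1, Ctsb and Becn1, were named outside this rule, some with their values. Windows not called in all 6 libraries are shown for contrast. Scripts ran under Python 3.11.15 with SciPy 1.17.1, pandas 2.3.3, matplotlib 3.10.9 and NumPy 2.4.6.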

Additional observations from a re-analysis of the deposited data

How the results depend on the processing

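Peak lists give calls without depth, so small differences between libraries were not detectable at this depth. Tunicamycin-only member regions numbered 1 within 5 kb of the genes, 1 by nearest gene and 1 on autosomes, and 2 to 13 with a library left out. DMSO-only member regions numbered 1 with q-values of at most 1e-05 (Ctsd), 1 with lists of one length (Uvrag) and 0 to 1 with a library left out. The group difference in percent called moved to -8.56 points for MiT/TFE on autosomes, and with a library left out it ran from -2.11 to 2.59 for autophagy, -6.60 to 7.23 for lysosome and -3.44 to 3.90 for MiT/TFE. The autophagy minus lysosome difference at gene ends was 17.4 with lists of one length, 22.6 with 50% cover and 8.55 to 11.2 with a library left out, and autophagy was higher in each of its 12 alternatives. Genes open in all libraries numbered 29 to 31 with a library left out. Member regions ranked higher without overlap numbered 1 within 5 kb, 7 by −log10 q and 4 to 15 with a library left out (15 without DMSO replicate 3), and those ranked lower 5 to 17 (17 without DMSO replicate 1). The cause of these changes was not tested. With a library left out, fewer values have to separate for a region to count. No share over all regions is given for these counts, so they are not read as results about the members.

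Same-numbered libraries did not deviate together (correlations of -0.0962, -0.0213 and 0.0245 over 20810 regions), so the numbers were not taken as pairs. With the replicate block, 9 member regions ranked higher in all 3 pairs (11.8%, against 11.6% of all) and 6 lower (7.89%, against 10.8%). The differences in percent called were 1.09, 2.54 and -0.899 points, as without the block. A mean over pairs equals the difference of group means for any pairing, so the block could not change them.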
